A study of Homo sapiens with 6 samples.

Results

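The inhibitor of DNA binding genes ID1 to ID4 and the SMAD genes SMAD1, SMAD3, SMAD5, SMAD6, SMAD7 and SMAD9 were examined in SU-CCS-1 cells with and without knockdown of EA1, the EWSR1::ATF1 fusion of clear cell sarcoma (CCS). The 10 genes were taken by gene name from a table of read counts for 18118 genes, and all 10 were among the 14571 genes that passed the filter on low counts. SU-CCS-1 is an established human CCS line that carries the fusion, so every library, control included, came from fusion-positive cells. Transfection used 5 pmol of siRNA, and cells were left for 48 h. The labels give 2 libraries with a scramble control siRNA (siNeg1), 2 with the first siRNA against EA1 (siEA1-1, called EA1 siRNA 1) and 2 with the second (siEA1-2, called EA1 siRNA 2). The study's methods name only 1 siRNA against EA1, whereas the labels list both. All 6 libraries come from this single line, and nothing in the labels says that replicates were separate cultures, so p-values measure only the spread between these libraries, which may be technical.

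SMADs carry signals of the transforming growth factor beta (TGF-beta) superfamily from receptor to nucleus. Receptors for bone morphogenetic proteins (BMPs) phosphorylate SMAD1, SMAD5 and SMAD9, receptors for TGF-beta and activin phosphorylate SMAD2 and SMAD3, both kinds act together with SMAD4, and SMAD6 and SMAD7 inhibit the pathway. ID genes, above all ID1, ID2 and ID3, are textbook targets of BMP signaling. ID proteins have a helix-loop-helix domain without a DNA-binding region, pair with E proteins and other basic helix-loop-helix (bHLH) factors, keep them off DNA, and are known for holding cells in an undifferentiated, dividing state.

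Counted reads summed to between 5942808 and 7599305 per library, so that 3 counts, used here as the detection floor, correspond to 0.395 to 0.505 CPM (counts scaled to 1 M counts per library). This floor covers counting error only. ATF1, whose reads include those of the fusion transcript, was at 82.2 and 87.4 CPM in control, at 21.2 and 20.3 under EA1 siRNA 1, and at 21.7 and 22.3 under EA1 siRNA 2. Counts per gene do not separate the fusion from native ATF1, so how far each of them fell was not tested. EWSR1, the other fusion partner, had a log2FC of -0.11 under EA1 siRNA 1 (padj = 0.450) and -0.04 under EA1 siRNA 2 (padj = 0.789). Throughout, CPM are scaled by edgeR's TMM factors, log2FC is knockdown over control, so that a positive value means a higher level after knockdown, ± is its standard error (SE), and padj is the p-value of edgeR's quasi-likelihood test after Benjamini-Hochberg adjustment over all genes tested. A gene was called at padj under 0.05. The comparisons with control share the same 2 control libraries.

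Knockdown of EA1 was accompanied by higher mRNA of ID2, ID3, SMAD3, SMAD6, SMAD7 and SMAD9 and by lower mRNA of ID4, with either siRNA. SMAD9 had the largest padj of these, and DESeq2 did not call it with either siRNA (adjusted p = 0.0640 and 0.0870). Of the 10 genes ID2 changed the most, by 4.91-fold and 4.72-fold. ID1, SMAD1 and SMAD5 were not called with either siRNA. Under EA1 siRNA 1, 6 of the 10 genes were called higher and 1 lower, in a table where 19.9% of all genes tested were called higher and 20.3% lower. Under EA1 siRNA 2 the counts were again 6 and 1, where 18.5% of all genes were called higher and 18.2% lower. The median log2FC of the 10 genes was 0.82 under EA1 siRNA 1, against 0.02 over all genes, and 0.68 under EA1 siRNA 2, against 0.00014 over all genes. The 10 genes were chosen with earlier results of these data known, so they are not an unbiased draw from all genes. Changes after knockdown were measured in bulk RNA, in which fewer cells of a kind and less RNA per cell cannot be told apart.

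**Figure D1:**
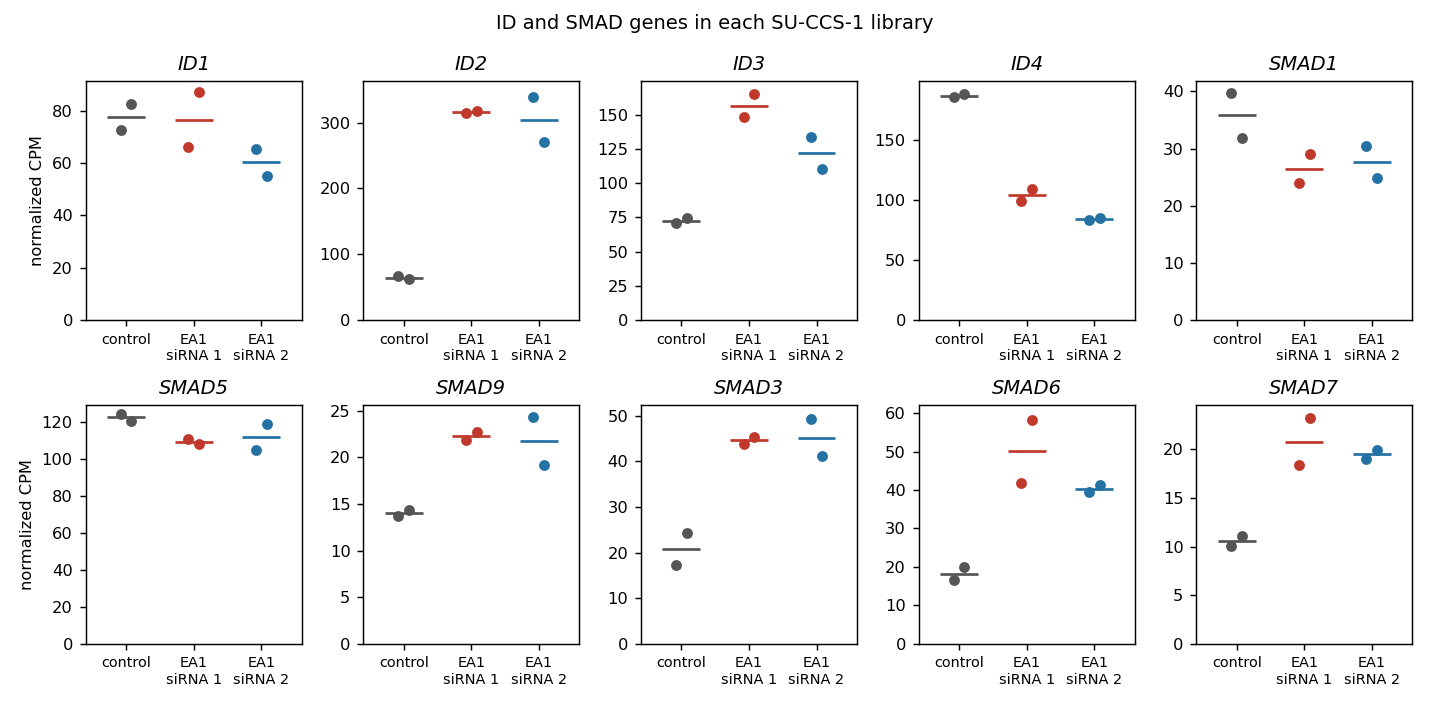
Normalized CPM (vertical axes, starting at 0, a separate scale for each gene) of the 10 genes in control, EA1 siRNA 1 and EA1 siRNA 2 libraries. Points are libraries and lines are means of 2 libraries. All 4 knockdown libraries lie above both control libraries for ID2, ID3, SMAD3, SMAD6, SMAD7 and SMAD9. They lie below both for ID4 and also for SMAD1 and SMAD5, which were not called. The share of all genes that separate in this way was not computed.

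The ID family split. ID2 (ENSG00000115738, chr2:8678845-8684461 on hg38, plus strand) is known in neural crest and immune cells as a brake on lineage-specifying bHLH factors. It was at 67.1 and 61.8 CPM in the control libraries, at 315 and 317 under EA1 siRNA 1 and at 339 and 271 under EA1 siRNA 2. The lowest knockdown library was thus far above the higher control. The log2FC was 2.30 ± 0.13 (padj = 2.75e-07) and 2.24 ± 0.13 (padj = 4.25e-07) with the first and the second siRNA. Of the 14571 genes tested, 615 (4.22%) had a larger absolute log2FC under EA1 siRNA 1 and 603 (4.14%) under EA1 siRNA 2. An antisense gene, ID2-AS1, shares 145 bases with ID2 exons, which is 6.55% of them, and although the library kit was a stranded one, whether strand was used when counting is not given in the sources used here, so reads in that stretch could belong to either gene. ID2-AS1 itself had 15 and 25 counts in control, 58 and 53 under EA1 siRNA 1 and 38 and 61 under EA1 siRNA 2, against 448 to 2217 counts for ID2. Its log2FC was 1.62 (padj = 0.00221) and 1.48 (padj = 0.00463).

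ID3 (ENSG00000117318, chr1:23557926-23559501, minus strand), best known as a partner of ID1 in vessel growth and in lymphocytes, rose too, but less. Its levels were 70.9 and 74.4 CPM in control, 148 and 165 under EA1 siRNA 1, and 134 and 110 under EA1 siRNA 2. All knockdown libraries were above control, and the EA1 siRNA 1 libraries were above those of EA1 siRNA 2. The log2FC was 1.11 ± 0.12 (padj = 2.46e-05) under EA1 siRNA 1 and 0.74 ± 0.12 (padj = 0.000546) under EA1 siRNA 2.

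ID4 (ENSG00000172201, chr6:19837370-19842197, plus strand) moved the other way. ID4 is known from neural progenitors and stem cells of several tissues, and can pair with the other ID proteins. It was at 186 and 189 CPM in control, at 99.1 and 110 under EA1 siRNA 1, and at 83.8 and 85.4 under EA1 siRNA 2. No knockdown library reached the control level. ID4 fell 1.80-fold under EA1 siRNA 1 (log2FC -0.85 ± 0.10, padj = 4.48e-05) and 2.21-fold under EA1 siRNA 2 (log2FC -1.15 ± 0.10, padj = 7.17e-06).

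ID1 (ENSG00000125968, chr20:31605283-31606515, plus strand), the family member most often used as a readout of BMP signaling, was not called. It was at 72.6 and 82.7 CPM in control, at 66.1 and 87.1 under EA1 siRNA 1, and at 65.5 and 55.2 under EA1 siRNA 2. EA1 siRNA 1 libraries lay on both sides of control, whereas both EA1 siRNA 2 libraries were below it. The log2FC was -0.02 under EA1 siRNA 1 (95% interval -0.34 to 0.30, padj = 0.917) and -0.37 under EA1 siRNA 2 (95% interval -0.69 to -0.04, padj = 0.0719). The second value passed the threshold without EA1 siRNA 2 replicate 1 (padj = 0.0207) and without EA1 siRNA 1 replicate 2 (padj = 0.0429), so ID1 under EA1 siRNA 2 lies close to the threshold.

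To compare levels between the 4 ID genes, CPM were divided by the length of each gene's annotated exons, 1.233 kb for ID1, 2.213 kb for ID2, 1.496 kb for ID3 and 3.873 kb for ID4. By this length ID1 ranked first in control cells at 63.0 ± 5.78 CPM per kb (SD, n = 2), ahead of ID3 at 48.6 ± 1.65 and ID4 at 48.4 ± 0.441, which did not differ beyond their spread, with ID2 last at 29.1 ± 1.67. Under EA1 siRNA 1 the order was ID2 at 143 ± 0.656, ID3 at 105 ± 7.95, ID1 at 62.1 ± 12 and ID4 at 26.9 ± 1.90. Under EA1 siRNA 2 the order was the same, at 138 ± 21.8, 81.6 ± 11.2, 48.9 ± 5.93 and 21.8 ± 0.276. The summed level of the 4 genes was 189 ± 6.21 CPM per kb in control, 337 ± 22.5 under EA1 siRNA 1 and 290 ± 38.6 under EA1 siRNA 2. ID2 therefore made up 15.4% ± 1.39 of ID mRNA per kb in control and 42.5% ± 2.65 and 47.4% ± 1.20 after knockdown, while ID4 went from 25.6% ± 0.607 to 8.0% ± 0.0279 and 7.61% ± 1.11. The shares and the order in control depend on which length is used. With the length of the Ensembl canonical transcript, ID1 at 79.0 ± 7.25 CPM per kb and ID3 at 76.5 ± 2.602 did not differ beyond their spread in control, nor did ID2 at 49.6 ± 2.84 and ID4 at 48.4 ± 0.441, while the order after knockdown was as above with both siRNAs. By that length ID2 made up 19.6% in control and 47.5% and 52.5% after knockdown, and ID4 19.1%, 5.25% and 4.95%.

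**Figure D2:**
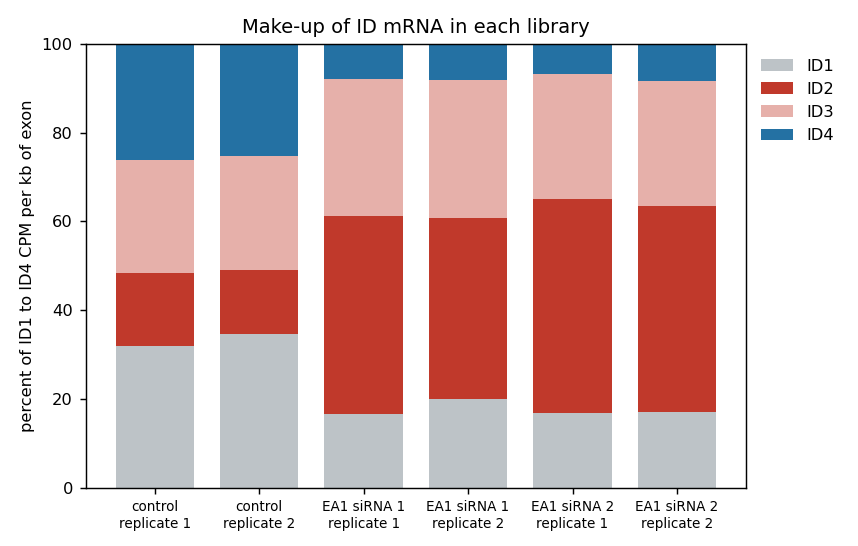
Percent of the summed ID1 to ID4 CPM per kb of exon (vertical axis) contributed by each ID gene in each of the 6 libraries (bars). By this length ID2 is the smallest part in both control libraries, whereas by canonical transcript length ID4 (19.4% and 18.8%) is the smaller in the first control library and ID2 (20.8% and 18.4%) in the second. ID2 is the largest part and ID4 the smallest in all 4 knockdown libraries by either length.

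Annotated antisense genes also share exon bases with SMAD1 (5.3% of its exons), SMAD3 (1.82%) and SMAD5 (6.75%), none of them in the count table, so the same doubt about strand applies there. SMAD5 and SMAD1, both activated by BMP receptors, were the most abundant of the 6 SMADs per kb of exon in control, by annotated exon and by canonical transcript length, and had the smallest absolute log2FC. SMAD5 (ENSG00000113658, chr5:136132845-136188747, plus strand) had the highest mean level per kb of the 6 SMAD genes in every group by either length. It was at 125 and 121 CPM in control, 111 and 108 under EA1 siRNA 1 and 105 and 119 under EA1 siRNA 2. All 4 knockdown libraries were slightly below control, but the log2FC of -0.16 (95% interval -0.39 to 0.06, padj = 0.230) and -0.13 (95% interval -0.36 to 0.10, padj = 0.361) did not pass the test. SMAD1 (ENSG00000170365, chr4:145481194-145559176, plus strand) was at 39.8 and 31.9 CPM in control, 24.0 and 29.0 under EA1 siRNA 1 and 30.4 and 24.8 under EA1 siRNA 2. The groups did not overlap, yet the lower control lay close to the highest knockdown library. Its log2FC was -0.44 ± 0.18 (padj = 0.0701) and -0.38 ± 0.18 (padj = 0.119). Under EA1 siRNA 1 it passed the threshold without control replicate 2 (padj = 0.0418), without EA1 siRNA 2 replicate 1 (padj = 0.0322) and without EA1 siRNA 2 replicate 2 (padj = 0.0327).

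SMAD9 (ENSG00000120693, chr13:36844831-36920887, minus strand), the third BMP-activated SMAD and the least abundant of them in control, was called higher. Its levels were 13.8 and 14.4 CPM in control, 21.9 and 22.7 under EA1 siRNA 1 and 24.4 and 19.2 under EA1 siRNA 2. All 4 knockdown libraries were above both controls. The log2FC was 0.66 ± 0.18 (padj = 0.0139) under EA1 siRNA 1 and 0.62 ± 0.19 (padj = 0.0212) under EA1 siRNA 2. These are the largest padj among the called genes of the 10. The call under EA1 siRNA 1 was lost without control replicate 1 (padj = 0.0683), control replicate 2 (padj = 0.0618), EA1 siRNA 1 replicate 1 (padj = 0.0569) or EA1 siRNA 1 replicate 2 (padj = 0.0816). The call under EA1 siRNA 2 was lost without control replicate 1 (padj = 0.0907), control replicate 2 (padj = 0.0854) or EA1 siRNA 2 replicate 1 (padj = 0.167). When each library was left out in turn the log2FC stayed between 0.61 and 0.69 under EA1 siRNA 1 and between 0.43 and 0.76 under EA1 siRNA 2. DESeq2 did not call SMAD9 with either siRNA (adjusted p = 0.0640 and 0.0870).

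SMAD3 (ENSG00000166949, chr15:67063763-67195173, plus strand), which relays TGF-beta and activin signals, was at 17.4 and 24.3 CPM in control, 43.8 and 45.5 under EA1 siRNA 1, and 49.3 and 41.1 under EA1 siRNA 2. Every knockdown library was well above the higher control. SMAD3 rose by a log2FC of 1.09 ± 0.17 (padj = 0.000439) and 1.11 ± 0.18 (padj = 0.000480). Its close relative SMAD2, not one of the 10 genes, was at 207 CPM in control on average and had a log2FC of -0.14 (padj = 0.323) and -0.05 (padj = 0.749). SMAD4, the common partner, had a log2FC of -0.25 (padj = 0.0860) under EA1 siRNA 1 and fell by 0.48 on the log2 scale under EA1 siRNA 2 (padj = 0.00502). Under EA1 siRNA 1, SMAD4 was called lower when EA1 siRNA 2 replicate 1 (padj = 0.0300) or replicate 2 (padj = 0.0315) was left out.

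Both inhibitory SMADs rose. SMAD6 (ENSG00000137834, chr15:66702236-66782849, plus strand), which acts mainly on BMP signaling, was at 16.5 and 19.9 CPM in control, 42.0 and 58.3 under EA1 siRNA 1 and 39.5 and 41.3 under EA1 siRNA 2. No control library came near a knockdown library, although the EA1 siRNA 1 replicates differed from each other more than those of the other groups. The log2FC was 1.45 ± 0.18 (padj = 7.25e-05) and 1.15 ± 0.18 (padj = 0.000525). SMAD7 (ENSG00000101665, chr18:48919853-48950965, minus strand), which inhibits both branches, was at 10.03 and 11.1 CPM in control, 18.3 and 23.2 under EA1 siRNA 1 and 19.0 and 19.9 under EA1 siRNA 2. Again all knockdown libraries were above control. The log2FC was 0.97 ± 0.20 (padj = 0.00223) and 0.88 ± 0.20 (padj = 0.00471).

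Per kb of annotated exon, the SMADs lay below the ID genes. In control, SMAD5 was at 13.6 ± 0.309 CPM per kb (SD, n = 2), SMAD1 at 5.05 ± 0.790, SMAD7 at 2.67 ± 0.184, SMAD9 at 2.36 ± 0.0748, SMAD6 at 2.13 ± 0.286 and SMAD3 at 2.08 ± 0.490. Under EA1 siRNA 1, SMAD6 at 5.86 ± 1.35, SMAD7 at 5.27 ± 0.873, SMAD3 at 4.46 ± 0.117, SMAD9 at 3.75 ± 0.0979 and SMAD1 at 3.74 ± 0.493 followed SMAD5 at 12.1 ± 0.191. The order of the SMADs below SMAD5 depends on which length is used. By canonical transcript length SMAD1 was second in control at 11.9 ± 1.87 CPM per kb, followed by SMAD6 at 4.75 ± 0.640, SMAD3 at 3.22 ± 0.759, SMAD7 at 3.16 ± 0.218 and SMAD9 at 2.53 ± 0.0801. By that length, under EA1 siRNA 1, SMAD6 at 13.1 ± 3.02 came next after SMAD5 at 15.6 ± 0.247, then SMAD1 at 8.83 ± 1.17, SMAD3 at 6.90 ± 0.181, SMAD7 at 6.22 ± 1.032 and SMAD9 at 4.01 ± 0.105.

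**Figure D3:**
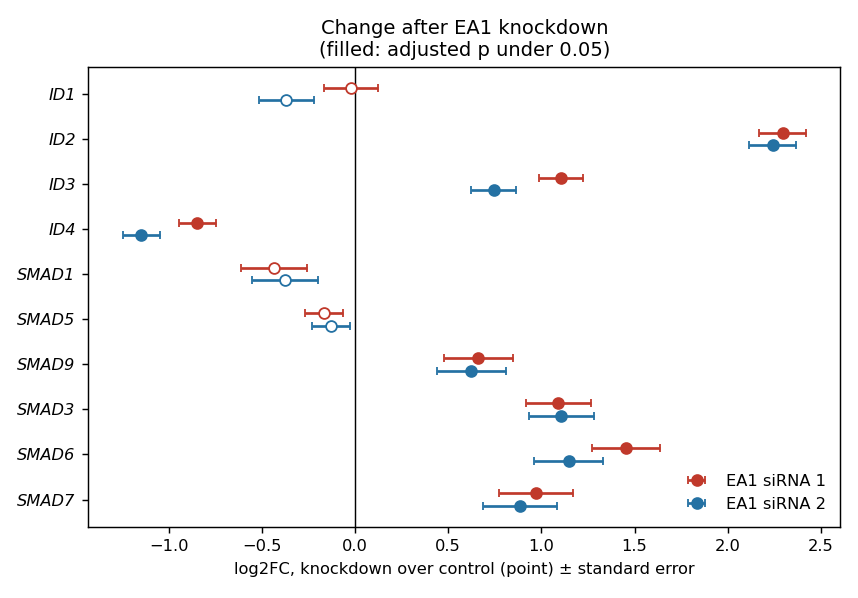
Log2FC of knockdown over control (horizontal axis) ± SE for the 10 genes under EA1 siRNA 1 (red) and EA1 siRNA 2 (blue). Filled points have a padj under 0.05. ID2 stands at 2.30 and 2.24, ID4 is the only filled point left of 0 with each siRNA, and ID1, SMAD1 and SMAD5 are open.

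The EA1 siRNAs were also compared with each other. None of the 10 genes was called by edgeR's quasi-likelihood test, in a comparison in which 2.24% of all genes tested were called in either direction, and none was called by DESeq2. The members with the smallest unadjusted p were ID3, ID4 and ID1, which were named after their values were seen. ID3 was higher under EA1 siRNA 1 by 0.36 ± 0.12 on the log2 scale (padj = 0.139), ID4 by 0.30 ± 0.10 (padj = 0.162) and ID1 by 0.35 ± 0.15 (padj = 0.264). The libraries of the siRNAs did not overlap for ID3, ID4, ID1 and SMAD6, none of them called. The share of all genes without overlap was not computed, so no conclusion is drawn from this separation. The difference in ID3 passed the threshold without EA1 siRNA 2 replicate 1 (log2FC 0.50, padj = 0.0279). For ID2 the 95% interval of the difference was -0.20 to 0.31, for SMAD3 -0.38 to 0.35 and for SMAD7 -0.33 to 0.50.

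Promoter windows are shown next for ID2, ID3 and ID4, the ID genes that changed, and for SMAD6, whose window holds a palindromic SMAD element, since EA1 keeps the DNA-binding domain of ATF1 and SMADs bind short elements near their targets. Each window holds the 250 bases before a transcription start in RefSeq (GRCh38.p14), written 5′ to 3′ on the strand of the gene. The windows are chr2:8681806-8682055 (plus) for ID2, chr1:23559502-23559751 (minus) for ID3, chr6:19837120-19837369 (plus) for ID4 and chr15:66701986-66702235 (plus) for SMAD6. The RefSeq start used for ID2 lies inside the longer gene span given above. Capitals mark matches to the motifs searched, and the capitals in ID3 are overlapping matches to CGTCA and CAGAC.
ID2: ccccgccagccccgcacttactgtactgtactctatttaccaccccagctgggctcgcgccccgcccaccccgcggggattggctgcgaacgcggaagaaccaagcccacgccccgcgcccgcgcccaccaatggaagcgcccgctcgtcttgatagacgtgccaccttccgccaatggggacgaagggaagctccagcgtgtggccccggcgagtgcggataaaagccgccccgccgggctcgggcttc
ID3: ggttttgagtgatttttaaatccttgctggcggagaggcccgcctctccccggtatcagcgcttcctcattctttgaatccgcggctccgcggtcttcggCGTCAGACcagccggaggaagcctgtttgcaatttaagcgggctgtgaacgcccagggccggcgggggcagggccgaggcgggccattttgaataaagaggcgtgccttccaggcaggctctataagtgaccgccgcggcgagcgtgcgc
ID4: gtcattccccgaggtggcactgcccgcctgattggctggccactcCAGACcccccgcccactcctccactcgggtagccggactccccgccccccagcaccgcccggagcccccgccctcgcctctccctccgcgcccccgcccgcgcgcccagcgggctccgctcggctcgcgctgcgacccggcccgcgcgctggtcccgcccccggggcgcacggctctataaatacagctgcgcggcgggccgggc
SMAD6: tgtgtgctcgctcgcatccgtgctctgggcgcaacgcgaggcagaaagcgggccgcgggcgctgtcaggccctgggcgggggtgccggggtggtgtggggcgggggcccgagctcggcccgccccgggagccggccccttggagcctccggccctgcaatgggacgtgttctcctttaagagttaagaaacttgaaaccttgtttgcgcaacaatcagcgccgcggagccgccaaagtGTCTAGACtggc

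Letters were searched on both strands in 35116 such windows of all genes, 20 of which belong to the 10 genes. SMAD1 and SMAD3 have 5 windows each, SMAD7 has 3 and the others have 1 each. The full cAMP response element TGACGTCA, the site of the ATF and CREB family, was found in 1.65% of all windows and in none of the 20. Its shorter core TGACG, which is contained in the full element, was in 21.2% of all windows and in 3 of the 20, belonging to ID3, SMAD1 and SMAD3. In ID3 it lies 150 bases before the start. The palindromic SMAD element GTCTAGAC was in 0.182% of all windows and in that of SMAD6, 12 bases before the start. The common SMAD box CAGAC was in 38% of all windows and in 7 of the 20, belonging to ID3, ID4, SMAD1, SMAD3 and SMAD7. The GC-rich motif GGCGCC was in 16.4% of all windows and in 3 of the 20, belonging to SMAD1 and SMAD3. The AP-1 site TGAGTCA was in 4.2% of all windows and in 2 of the 20, also of SMAD1 and SMAD3. ID2, which changed most, held none of these letters in its window. The windows are GC-rich, at 69.2% for ID2, 62% for ID3, 78.8% for ID4 and 68% for SMAD6, against a median of 58% over all windows. A match is a description of the letters and not a bound site.

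The other genes of the pathway are given next, by role, with changes on the log2 scale for EA1 siRNA 1 and then EA1 siRNA 2. Over all genes tested, 19.9% were called higher and 20.3% lower under EA1 siRNA 1, and 18.5% and 18.2% under EA1 siRNA 2. Counts of calls in each role are to be read beside these shares. Few BMP and growth differentiation factor (GDF) ligands passed the filter on low counts, 3 of 21 listed. With each siRNA 2 of the 3 were called lower and none higher (median log2FC -1.28 and -1.10). BMP2, a strong inducer of ID genes, was at 121 and 106 CPM in control, 12.1 and 14 under EA1 siRNA 1 and 13.2 and 10.4 under EA1 siRNA 2. All 4 knockdown libraries were far below control. BMP2 fell, with a log2FC of -3.13 ± 0.15 (padj = 1.66e-07) and -3.28 ± 0.16 (padj = 1.91e-07). Of its textbook targets, ID2 and ID3 rose and ID1 was not called, while ID4 fell. A link between BMP2 and the ID genes was not tested. GDF15, a stress-induced cytokine, fell by 1.28 (padj = 0.000101) and 1.10 (padj = 0.000331). Of the TGF-beta and activin ligands, 4 of 12 were tested and 3 were called lower with each siRNA (median log2FC -0.90 and -1.29). The 3 calls under EA1 siRNA 1 became 0 without EA1 siRNA 1 replicate 1 and 1 without control replicate 1 or EA1 siRNA 1 replicate 2.

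These 3 ligands were INHBA, the activin A subunit, TGFB3 and TGFB1. INHBA was at 28 and 26 counts in control and at 1 to 7 counts after knockdown, with a log2FC of -2.40 ± 0.67 (padj = 0.0134) and -2.96 ± 0.71 (padj = 0.00690). INHBA lost its call without control replicate 1 (padj = 0.0900 and 0.0525) and, for EA1 siRNA 1, without EA1 siRNA 1 replicate 1 (log2FC -1.69, padj = 0.150). Its log2FC was -3.66 without EA1 siRNA 1 replicate 2 and, for EA1 siRNA 2, -4.29 without EA1 siRNA 2 replicate 2. TGFB3 had a log2FC of -1.04 (padj = 0.0434) and -1.38 (padj = 0.0150). Its call was lost without control replicate 2 (padj = 0.238 and 0.109), for EA1 siRNA 1 without EA1 siRNA 1 replicate 1 (padj = 0.276) or replicate 2 (padj = 0.0504), and for EA1 siRNA 2 without EA1 siRNA 2 replicate 2 (padj = 0.0514). TGFB1 had a log2FC of -0.66 (padj = 0.0171) and -1.21 (padj = 0.000668). Under EA1 siRNA 1 the call of TGFB1 was lost without control replicate 1 (padj = 0.0940), EA1 siRNA 1 replicate 1 (padj = 0.0998) or EA1 siRNA 1 replicate 2 (padj = 0.0673).

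Receptors and coreceptors that were called mostly rose. Of 14 tested, 6 were called higher and none lower under EA1 siRNA 1 (median log2FC 0.33), and 6 higher and 1 lower under EA1 siRNA 2 (median log2FC 0.42). BAMBI, a pseudoreceptor that dampens TGF-beta and BMP signaling, was at 44.6 and 45.5 CPM in control, 165 and 152 under EA1 siRNA 1 and 175 and 133 under EA1 siRNA 2. Its groups were far apart (log2FC 1.81 ± 0.14, padj = 2.17e-06, and 1.77 ± 0.14, padj = 3.20e-06). TGFBR2, the receptor that binds TGF-beta first, rose by 1.78 ± 0.11 (padj = 7.26e-07) and 0.66 ± 0.12 (padj = 0.000977). ACVR1B, an activin receptor, rose by 0.84 ± 0.15 (padj = 0.00104) and 0.72 ± 0.15 (padj = 0.00338). The receptor called lower under EA1 siRNA 2 was TGFBR3 (betaglycan, named after its values were seen), with a log2FC of -1.09 ± 0.12 (padj = 4.75e-05). The number called lower there was 2 without EA1 siRNA 2 replicate 1.

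Extracellular antagonists and latency proteins were mixed. Of 9 tested, 2 were called higher and 3 lower under EA1 siRNA 1 (median log2FC 0.35), and 3 higher and 2 lower under EA1 siRNA 2 (median log2FC 0.13). The number called lower under EA1 siRNA 1 was 1 without EA1 siRNA 1 replicate 1. FST (follistatin), which traps activin and some BMPs, was at 45.8 and 40.8 CPM in control and between 1.28 and 4.12 in the knockdown libraries. It fell by 4.04 ± 0.38 (padj = 8.93e-06) and by 3.90 ± 0.37 (padj = 1.33e-05) on the log2 scale. The size of the fall depended on single libraries: under EA1 siRNA 1 the log2FC was -3.39 without EA1 siRNA 1 replicate 1 and -5.08 without replicate 2, and under EA1 siRNA 2 it was -4.77 without EA1 siRNA 2 replicate 2, each still called. FSTL1, a follistatin-like secreted protein, rose by 1.88 ± 0.13 (padj = 1.00e-06) and 1.85 ± 0.13 (padj = 1.42e-06). LTBP1, which tethers latent TGF-beta to the matrix, fell by 0.86 ± 0.20 (padj = 0.00527) and 1.23 ± 0.21 (padj = 0.000750). Its call under EA1 siRNA 1 was lost without EA1 siRNA 1 replicate 1 (padj = 0.0679) or control replicate 2 (padj = 0.0501).

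Among 18 other SMADs and SMAD regulators, 2 were called higher and 6 lower under EA1 siRNA 1 (median log2FC -0.15), and 3 higher and 6 lower under EA1 siRNA 2 (median log2FC -0.09). The count of higher calls was not stable: under EA1 siRNA 1 it was 0 without control replicate 1, control replicate 2, EA1 siRNA 1 replicate 1 or EA1 siRNA 1 replicate 2 and 1 by DESeq2, and under EA1 siRNA 2 it was 1 without control replicate 1. The 3 largest changes were all in negative regulators. LDLRAD4 and PMEPA1, related membrane proteins that keep SMAD2 and SMAD3 from the receptor, fell by 1.25 (padj = 5.09e-06) and 1.44 (padj = 2.73e-06), and by 1.05 (padj = 0.00461) and 1.44 (padj = 0.000903). TGIF1, a corepressor of SMADs, fell by 0.81 (padj = 0.00101) and 1.05 (padj = 0.000228). SMAD6, SMAD7 and BAMBI thus rose while LDLRAD4, PMEPA1 and TGIF1 fell, so inhibitors of the pathway did not share a direction.

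Textbook targets of TGF-beta or BMP, ID and SMAD genes aside, went both ways. Of 17 tested, 6 were called higher and 6 lower under EA1 siRNA 1 (median log2FC -0.16), and 6 higher and 5 lower under EA1 siRNA 2 (median log2FC 0.01). SNAI2, a neural crest transcription factor, rose by 2.64 ± 0.16 (padj = 5.95e-07) and 2.62 ± 0.16 (padj = 7.54e-07). ATOH8, a bHLH gene induced by BMP in endothelium and liver, was at 1.65 and 1.41 CPM in control and at 7.74 to 9.39 in the knockdown libraries (log2FC 2.48 ± 0.35, padj = 0.000170, and 2.40 ± 0.35, padj = 0.000272). RUNX2, a bone-lineage factor, went from 122 and 127 CPM to between 10.5 and 15.3 and fell by 3.49 ± 0.14 (padj = 9.34e-08) and 3.09 ± 0.13 (padj = 1.91e-07).

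E proteins and other bHLH factors are the partners that ID proteins act on or near. Of 8 tested, 3 were called higher and none lower under EA1 siRNA 1 (median log2FC 0.34), and 3 higher and 3 lower under EA1 siRNA 2 (median log2FC 0.34). The 3 called lower, named after their values were seen, were the E proteins TCF3 (log2FC -0.35, padj = 0.0408) and TCF4 (log2FC -0.70, padj = 0.0229) and the bHLH factor TWIST2 (log2FC -1.47, padj = 0.0107). That count of lower calls was 0 without control replicate 1, 1 without control replicate 2 or EA1 siRNA 2 replicate 1, and 1 by DESeq2. It was not compared with the count under EA1 siRNA 1 by a test of its own. Between the siRNAs none of the 8 genes was called (TCF3 padj = 0.533, TCF4 padj = 0.410, TWIST2 padj = 0.252). HES1, a bHLH repressor downstream of Notch, rose by 1.23 ± 0.23 (padj = 0.00128) and 1.19 ± 0.23 (padj = 0.00194). MITF, the melanocyte bHLH leucine zipper factor, rose by 0.76 ± 0.10 (padj = 0.000149) and 0.81 ± 0.10 (padj = 0.000113).

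**Figure D4:**
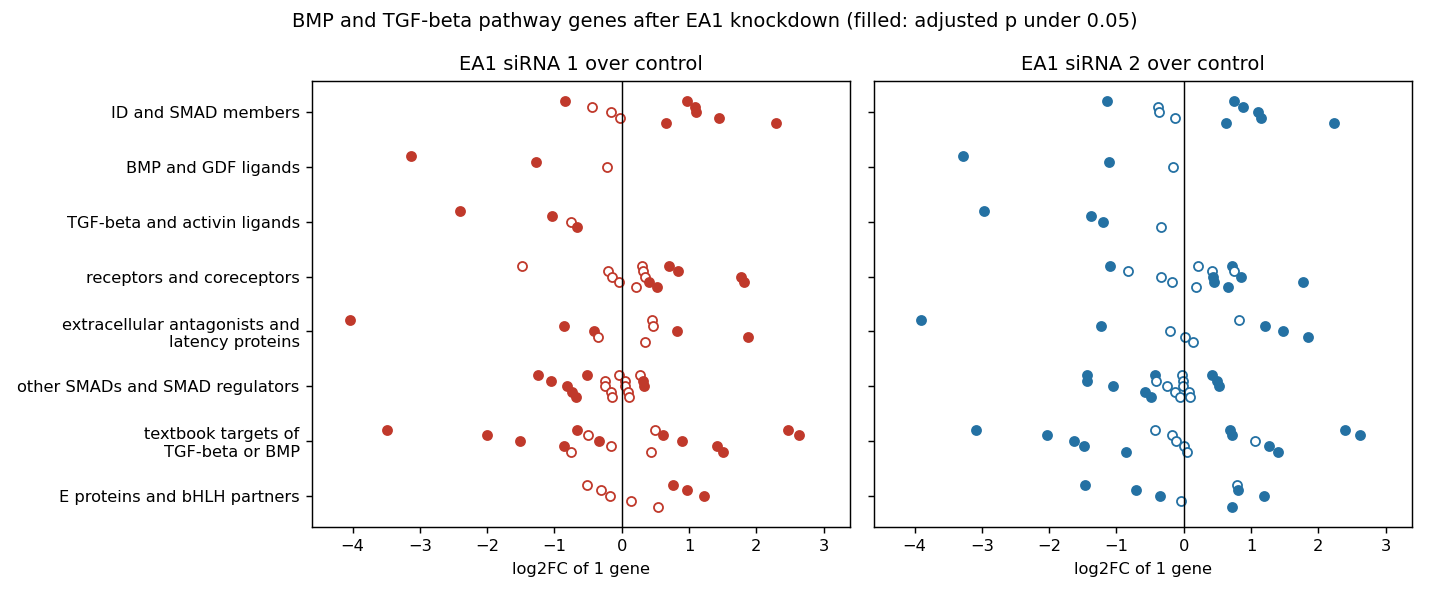
Log2FC of knockdown over control (horizontal axis) for each gene tested, by role in the pathway (rows), under EA1 siRNA 1 (left) and EA1 siRNA 2 (right). Each point is 1 gene, filled where padj is under 0.05, and its height within a row carries no value. Called ligands all lie left of 0, and called receptors lie right of 0 under EA1 siRNA 1.

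The genes with the pattern most like each ID gene over the 6 libraries were found by the Euclidean distance of centred log2 CPM. Nearest to ID2 were FAM189A2 (distance 0.17) and MLPH (distance 0.20), the melanophilin that links melanosomes to the actin motor, then an identifier without a symbol, ENSG00000279811 (distance 0.28). MLPH was at 33.8 ± 3.43 CPM in control (SD, n = 2), 155 ± 11 under EA1 siRNA 1 and 165 ± 32.5 under EA1 siRNA 2. FAM189A2 was at 17.7 ± 0.533, 82.3 ± 7.01 and 80.1 ± 9.06. Nearest to ID3 were CNIH4 (0.11), GPR161 (0.13) and GUCD1 (0.15). GPR161, a receptor of the primary cilium, was at 19.3 ± 0.894 CPM in control, 40.6 ± 3.34 and 32.8 ± 4.48. Nearest to ID4 were ALYREF (0.15), an mRNA export factor, MN1 (0.16) and TSR1 (0.17), a ribosome assembly factor. MN1, a transcriptional coregulator, was at 283 ± 2.97 CPM in control, 152 ± 2.65 and 128 ± 8.77. Nearest to ID1 were IMPDH1 (0.16), AKAP1 (0.16) and SLC25A43 (0.20). IMPDH1, an enzyme of guanine nucleotide synthesis, was at 24.9 ± 1.93, 24.9 ± 4.41 and 20.4 ± 4.41. The distance measures likeness over 6 libraries of 3 groups and was not tested.

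The labelled cell type was checked against markers. All 9 CCS and melanocytic markers were in the table, though MLANA had only 4 and 0 counts in control. Their summed level was 2980 to 3180 CPM in control, 8696 to 8707 under EA1 siRNA 1 and 7679 to 12224 under EA1 siRNA 2. PMEL alone was at 1397 and 1043 CPM in control and at 7768 and 4241 under EA1 siRNA 2. Of the 9 markers, 8 were called higher under EA1 siRNA 1 and 7 under EA1 siRNA 2, and none was called lower. Over all genes tested, 19.9% and 18.5% were called higher. Of 6 fibroblast markers 2, LUM and COL1A1, were in the table, whereas DCN, PDGFRA, COL3A1 and THY1 were not. LUM and COL1A1 summed to 2.70 to 3.44 CPM in control, 8.89 to 11.9 under EA1 siRNA 1 and 12.9 to 23.0 under EA1 siRNA 2. LUM, at 12 and 6 counts in control, was called higher with each siRNA, and COL1A1 was not called (padj = 0.453 and 0.0974). Sums of epithelial (1 of 5 in the table), blood cell (1 of 5) and endothelial (2 of 4) markers stayed between 0 and 2.95 CPM, and EPCAM, PTPRC and PECAM1 were not in the table. The melanocytic and fibroblast sums were thus higher in the same libraries in which ID2, ID3, SMAD3, SMAD6, SMAD7 and SMAD9 were higher and ID4 lower, and their part in those results was not tested.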

How the data were processed

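Polyadenylated RNA of 6 SU-CCS-1 libraries was sequenced. Per the labels and the study's methods, the authors mapped reads on hg38 using BWA-MEM (an aligner that is not splice-aware), ran featureCounts 1.6.3 per gene, and deposited unnormalized counts for each library. The library kit was a stranded one (TruSeq Stranded mRNA), whereas the annotation, the strand setting of the counting and any filter on genes are not given in the sources used here.

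Groups came from the sample titles. The deposited counts were analysed in edgeR 4.0.16 (R 4.3.3): genes were kept by filterByExpr (minimum count 10, minimum total 15), scaled by TMM and tested by the quasi-likelihood F-test in a model of 3 groups, and p-values of 14571 genes were adjusted by the Benjamini-Hochberg method. The common biological coefficient of variation was 0.109 on 3 residual degrees of freedom. The SE is the log2FC divided by the root of the F statistic. Log2 CPM for distances used a prior count of 2. Totals of 5942808 to 7599305 counts set the precision. Gene lengths and coordinates came from GENCODE, which holds 18063 of the 18118 identifiers, and promoters from RefSeq, in which all 10 genes matched. No protein sequences were used here.

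Named genes were the 10 members, ATF1, EWSR1, SMAD2, SMAD4, up to 3 genes per pathway list with the largest mean absolute log2FC among those called alike by both siRNAs and with both control libraries on one side of all 4 knockdown libraries, and the 3 nearest genes to each ID gene. Members and lists were chosen with earlier results of these data known. Alternatives were no low-count filter, a minimum of 10 counts in each library, RLE scaling, a replicate block, DESeq2 1.42.0, models of only the 4 libraries compared, and dropping each library. The canonical transcript length was added after the data were seen.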

Additional observations from a re-analysis of the deposited data

Results flagged for a closer look

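None of the 10 ID and SMAD genes differed between the EA1 siRNAs past the threshold, but 5 of the 73 genes tested in the 7 lists of the wider pathway did, where 2.24% of all genes tested were called, by edgeR's quasi-likelihood test over the 6 libraries with Benjamini-Hochberg adjustment. TGFBR2 was higher with EA1 siRNA 1 than with EA1 siRNA 2 by 1.11 on the log2 scale (padj = 0.00106), at a mean of 149 against 69.0 CPM, and control at 43.6. TGFBR3 was higher with EA1 siRNA 1 by 1.39 (padj = 0.00105), at 74.2 against 28.1 CPM, with control in between at 60.1. CHRDL2, a chordin-like BMP antagonist, had a log2FC of -1.01 between the siRNAs (padj = 0.0117), at 27.5 against 55.7 CPM and 19.9 in control. Its difference was lost without EA1 siRNA 1 replicate 1 (padj = 0.0736) or replicate 2 (padj = 0.179). NEDD4L, a ubiquitin ligase that acts on SMAD2 and SMAD3, had a log2FC of -0.67 (padj = 0.0153), at 416 against 661 CPM and 664 in control, and was lost without EA1 siRNA 1 replicate 2 (padj = 0.221). ZFYVE16, an endosomal SMAD adaptor, had a log2FC of -0.53 (padj = 0.0440), at 1057 against 1528 CPM and 1089 in control. It was lost without control replicate 1 (padj = 0.0563), control replicate 2 (padj = 0.0552), EA1 siRNA 1 replicate 1 (padj = 0.164) or EA1 siRNA 1 replicate 2 (padj = 0.344).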

How the results depend on the processing

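With 2 libraries per group, small changes such as that of SMAD5 were not resolved. Calls of SMAD1, SMAD9 and ID1, near the threshold with all libraries, were gained or lost when single libraries were left out. SMAD9 kept a log2FC of 0.61 to 0.69 with EA1 siRNA 1 and 0.43 to 0.76 with EA1 siRNA 2. ID2, ID3, ID4, SMAD3, SMAD6 and SMAD7 were called in the reported direction under each of the 12 alternatives, with log2FC between 2.05 and 2.36 for ID2, 0.58 and 1.18 for ID3, -1.19 and -0.77 for ID4, 0.87 and 1.34 for SMAD3, 1.02 and 1.68 for SMAD6 and 0.78 and 1.14 for SMAD7 over both siRNAs. The number of the 10 genes called higher was 5 or 6. The number called lower was 1 or 2 when a library was left out, 2 for EA1 siRNA 1 when only the 4 libraries compared were fitted, and 2 for each siRNA with the replicate block, in which SMAD1 (EA1 siRNA 1, padj = 0.0465) and ID1 (EA1 siRNA 2, padj = 0.0457) passed. SMAD1 with EA1 siRNA 1 also passed on the 4 libraries (padj = 0.0387), as did SMAD4 (padj = 0.0324). The labels do not say that replicate numbers mark a shared batch, and deviations of libraries with the same number correlated at 0.130, 0.199 and 0.144 between groups. The block raised the calls between the siRNAs from 116 to 323 higher and from 210 to 530 lower. DESeq2 lost SMAD9 with both siRNAs and TGFB3 with EA1 siRNA 1 (adjusted p = 0.128), and made 134 calls higher and 330 lower between the siRNAs. The 4 knockdown libraries alone gave 71 and 105. Leaving out a library gave 13 to 317 higher and 20 to 471 lower, and between 1892 and 3075 genes higher than control for EA1 siRNA 1 (2898 with all libraries) and between 1767 and 2543 for EA1 siRNA 2 (2702). Between the siRNAs 0 or 1 of the 10 genes was called higher.

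Differences that changed sign when a library was left out were all near 0 and not called. ID1 with EA1 siRNA 1 ranged from -0.25 to 0.17 on the log2 scale, and with EA1 siRNA 2 EWSR1 ranged from -0.16 to 0.0456 and SMAD2 from -0.16 to 0.0410. Between the siRNAs the ranges were -0.0884 to 0.22 for ID2, -0.19 to 0.0857 for SMAD1, -0.13 to 0.11 for SMAD3, -0.13 to 0.0724 for SMAD5, -0.0848 to 0.25 for SMAD7 and -0.12 to 0.21 for SMAD9. The cause was not tested. INHBA and FST had no value under the filter of at least 10 counts in every library.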
